A study of Mus musculus with 19 samples.

Results

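The mitochondrial respiratory chain genes are the nuclear genes for the subunits of the 4 electron transport complexes and of the ATP synthase, with part of the factors that assemble them. They were chosen by name: a gene belonged to the group when its symbol began with Nduf (complex I), Sdha to Sdhd (complex II, succinate dehydrogenase), Uqcr (complex III, cytochrome bc1), Cox4 to Cox8 (complex IV, cytochrome c oxidase) or Atp5 (complex V, ATP synthase). Membership by name uses no measured value, while the probe set that represents a gene was picked by its signal. The rule was set with earlier results of these data known. The rule found 94 genes among 18194 genes with a probe set of a single gene on the Affymetrix Mouse430_2 array: 34 genes of complex I, 4 of complex II, 8 of complex III, 19 of complex IV, 17 of complex V, 8 complex I assembly factors (Ndufaf) and 4 complex II assembly factors (Sdhaf). Ndufa4, its paralogue Ndufa4l2 and Cox7a2l are counted with complex IV, where their proteins are known to act. The 94 genes had 185 probe sets, and each gene is represented by the one with the highest mean signal over the ovary arrays. 88 of the 94 had a mean signal above 116.05, the median of all values, in at least 1 stage and were tested; Cox4i2, Cox6a2, Cox7b2, Cox8b, Ndufa4l2 and Ndufb4 did not.

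Whole ovaries of wild-type CD-1 mice, an outbred strain, were profiled at gestation days (gd) 11, 12, 14, 16 and 18 and at postnatal day (pnd) 2, with 3 arrays per stage. The study compared each stage with the one before it. The samples of gd11, gd12 and gd14 are labelled as pools of 3 and the later ones as not pooled, whereas the series text gives each sample as the pair of ovaries of 1 animal, with 1 dam for each sample except gd11 samples 18 and 19, which share a dam. Samples 16 and 18 of gd11 are labelled gonad with mesonephros, the transient embryonic kidney beside the gonad, and sample 19 gonad. A further array held RNA pooled from whole newborn CD-1 mice of both sexes at pnd 0.5, with no replicate.

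The respiratory chain passes electrons from NADH (through complex I) and succinate (through complex II) by way of ubiquinone, complex III, cytochrome c and complex IV to oxygen. Complexes I, III and IV pump protons across the inner mitochondrial membrane, and complex V uses the returning protons to make ATP. Female germ cells are known to multiply their mitochondria greatly as they become oocytes, oocytes are known to depend on pyruvate supplied by the cells around them, and some subunits have variants that are known mainly from testis (Cox6b2, Cox7b2, Cox8c) or from heart and skeletal muscle (Cox6a2, Cox7a1, Cox8b).

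The promoters of 78 of the 94 genes are held by a RefSeq table of 300-base windows (250 bases before and 50 after a transcription start, build GRCm38.p6) of 27025 genes. Binding letters of NRF1, a regulator of nuclear genes for mitochondrial proteins, searched on both strands as GCGCA and GCGC parted by 1 base of any kind, occurred in 19 of these 78 genes (24.4%) and in 5.19% of all genes of the table. The core of GABPA (also known as NRF2), CCGGAAG on either strand, occurred in 22 of 78 (28.2%) and in 9.93% of all. YY1 letters (AAGATGG) occurred in 11 of 78 (14.1%), against 7.28% of all, and ERR letters (AAGGTCA) in 8 of 78 (10.3%), against 5.38%. The E box CACGTG occurred in 6 of 78 (7.69%), against 8.09%. These are shares of windows with the letters and no test was made of them, and the motifs were searched independently of each other, so a window can be counted for several.

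The 250 bases upstream of the start are shown for 4 of the 5 genes with the smallest p of the test over stages, since these are the members on which the results turn most (Ndufs1 is the other). Capitals mark a match to any of the 5 motifs. The windows lie at chr4:24897833-24898082 (plus strand) for Ndufaf4, chrX:37191239-37191488 (minus strand) for Ndufa1, chr6:24527691-24527940 (minus strand) for Ndufa5, where the table has 2 starts and the upstream one is shown, and chr15:82354292-82354541 (minus strand) for Ndufa6, all in GRCm38.p6 and written 5′ to 3′ in the direction of the gene.
Ndufaf4: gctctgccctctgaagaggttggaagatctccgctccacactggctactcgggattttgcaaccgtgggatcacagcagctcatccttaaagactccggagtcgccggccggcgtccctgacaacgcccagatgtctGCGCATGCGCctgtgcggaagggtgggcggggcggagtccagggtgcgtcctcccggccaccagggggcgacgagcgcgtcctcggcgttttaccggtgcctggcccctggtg
Ndufa1: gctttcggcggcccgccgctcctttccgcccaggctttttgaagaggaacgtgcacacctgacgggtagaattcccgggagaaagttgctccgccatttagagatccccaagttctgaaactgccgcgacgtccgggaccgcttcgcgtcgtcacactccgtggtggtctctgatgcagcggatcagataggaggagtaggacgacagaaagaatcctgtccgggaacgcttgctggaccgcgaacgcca
Ndufa5: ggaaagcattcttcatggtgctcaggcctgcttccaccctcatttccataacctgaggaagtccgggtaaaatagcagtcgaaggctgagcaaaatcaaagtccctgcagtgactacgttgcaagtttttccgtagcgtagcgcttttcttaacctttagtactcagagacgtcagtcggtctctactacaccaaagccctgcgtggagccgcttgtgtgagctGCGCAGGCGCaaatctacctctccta
Ndufa6: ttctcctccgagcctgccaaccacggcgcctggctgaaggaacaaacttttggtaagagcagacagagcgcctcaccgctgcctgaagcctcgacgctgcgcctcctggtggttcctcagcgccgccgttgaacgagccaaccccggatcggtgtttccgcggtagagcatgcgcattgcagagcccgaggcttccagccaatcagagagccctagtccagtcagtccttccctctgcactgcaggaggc
Ndufaf4 and Ndufa5 hold 1 match each to the NRF1 letters, which begins 113 bases before the start of Ndufaf4 and 26 before that of Ndufa5. The windows of Ndufa1 and Ndufa6 hold none of the 5 motifs.

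Values are signal intensities as the authors deposited them, and the number of arrays limits their precision. Changes are differences of stage means of log2(signal + 31), so those of dim genes are understated, and a gene is said to have risen or fallen where its p in the limma fit, adjusted over all 26431 probe sets tested, was under 0.05. Median signals of the 18 ovary arrays ran from 102.94 to 137.56. The labelled tissue was checked against its markers. Of 8 germ cell markers, 4 had a stage mean above 116.05 at gd11, 7 at gd12 and 8 at gd14. The count was 6 at gd16, 6 at gd18 and 7 at pnd2. All 6 markers of the granulosa lineage were above it at every stage. The 6 oocyte markers summed to 139.35 to 219.31 at gd11 and 12609 to 21388 at pnd2. The sum of 5 erythroid markers was 49121 to 57000.2 at gd11 and 109.21 to 196.34 at pnd2. Muscle markers (12 genes) summed to 363 to 2246 on the ovary arrays. Markers of mesonephros and nephric duct summed to 4281.54 to 5121.74 at gd11 and 3870.29 to 5772.3 at gd12. The gd11 range includes the array labelled gonad. Leaving out the gd11 samples labelled with mesonephros therefore does not remove this signal. The part of mesonephros in the changes was not tested. Replicate 7 of gd16 stood apart, with a signal of 44.79 for Xist, against 11306 to 18576 on the other 17 ovary arrays. Its signal was at most 64.42 on 9 probe sets of genes of the Y chromosome. Of these, 2 were highest on this array, at 40.23 and 22.4. Replicate 16 of gd11 had high signals of nervous tissue markers, with 7965 for Stmn2 against 227 and 291 on the other gd11 arrays. RNA quality by the Gapdh control moved with stage. The 3′ probe set of Gapdh over its 5′ one gave a ratio between 5.07 and 5.41 at pnd2, against 2.99 to 3.28 at gd11. The same ratio for beta-actin was 2.08 to 3.36 at pnd2 and 1.77 to 2.26 at gd11, so these stages overlapped. The part of blood and RNA quality in the differences between pnd2 and gd11 was not tested. In a whole organ, fewer cells of a type and less RNA per cell cannot be told apart.

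As a group, the respiratory chain genes had a narrow range over ovary development. Between the stages with the lowest and the highest mean, the median range was 0.57 on the log2 scale for the 88 tested members and 0.86 for all 12592 genes tested, and 81 of the 88 members (92.0%) stayed within a range of 1, against 59.6% of all genes. A change over the 6 stages was called (limma F test, adjusted p under 0.05) for 57 of 88 members, against 68.1% of all genes. The stage with the highest mean was gd14 for 30 members, pnd2 for 22, gd16 for 19, gd11 for 9, gd12 for 7 and gd18 for 1. Among the 57 members with a called change these counts were 21, 14, 11, 7, 3 and 1, in the same order. The highest stage was not counted over all genes, so these counts have no share to stand beside.

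Stage by stage, members rose mainly at 2 steps. At gd14 over gd12, 14 of 88 members rose and 1 fell, against 11.6% of all genes that rose and 8.01% that fell (19.6% called). The median log2 change was 0.14 for members and -0.02 for all genes. At pnd2 over gd18, again 14 rose and 2 fell, against 8.51% and 6.84% of all genes (15.3% called), with medians of 0.11 for members and -0.03 for all genes. The 14 members of the earlier step and the 14 of the later one, which share no arrays, had 1 gene in common, Ndufb2 (7.14% of each list). Whether this is fewer than unrelated lists of this size would share was not tested. With the mean of its probe sets, Ndufb2 was called at neither step (log2 changes of 0.19 and 0.06). Between these steps members fell more often than they rose. At gd16 over gd14, 4 rose and 12 fell, against 11.4% and 9.75% of all genes (21.2% called). The 12 include Cox7a1, which passed the filter on low signal only through its gd14 arrays. With arrays scaled to a common median, 0 rose and 22 fell. At gd18 over gd16, 4 rose and 7 fell, against 4.95% and 3.25% of all genes (8.2% called), and 5 rose and 4 fell with median scaling. At gd12 over gd11, 1 member rose and none fell (limma; 8 had an unadjusted p under 0.05), against 3.3% and 1.41% of all genes (4.71% called). The 3 arrays of a stage lay wholly above or below those of the stage before it for 13 of 88 members at gd12 over gd11 (24.6% of all genes), 34 at gd14 over gd12 (40.2%), 32 at gd16 over gd14 (37.5%), 29 at gd18 over gd16 (26.3%) and 35 at pnd2 over gd18 (34.3%), and for 40 at pnd2 over gd11 (55.4%).

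**Figure D1:**
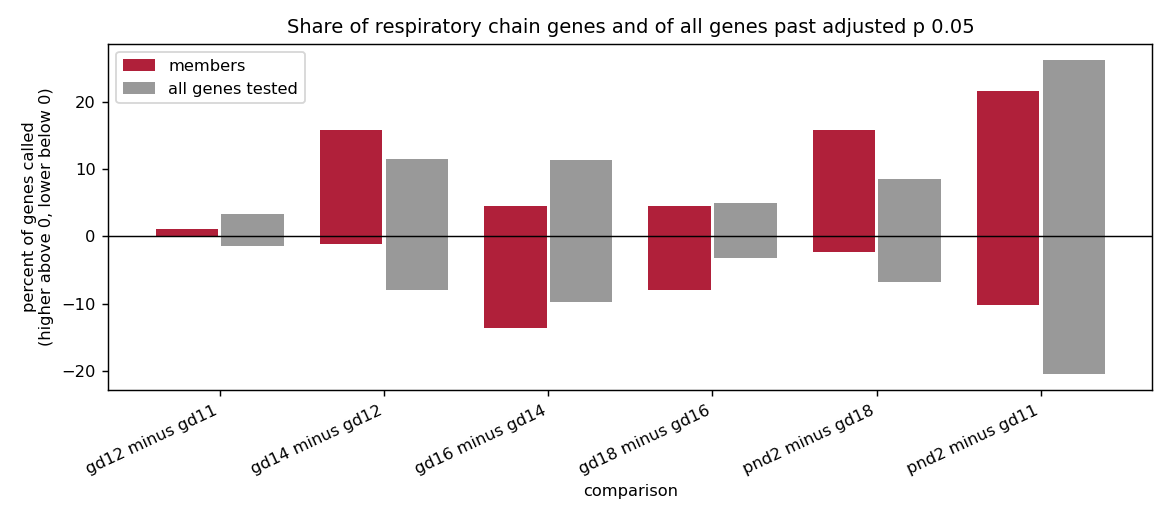
Percent of the 88 tested members (red) and of all 12592 genes tested (grey) that were called higher (above 0) or lower (below 0) in each comparison of stages. Members exceed all genes among the higher calls of gd14 minus gd12 and pnd2 minus gd18. They lie below all genes in both directions in pnd2 minus gd11. The lower calls of members in gd16 minus gd14 include Cox7a1, which passed the filter only through gd14.

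Over the whole span, pnd2 against gd11, 19 members rose and 9 fell, against 26.3% of all genes that rose and 20.5% that fell (46.9% called). The split turned with the scaling: with arrays scaled to a common median 12 members rose and 18 fell, a setting that moves the median change of all genes to -0.10, against 0.04 in the deposited scaling. Without both gd11 samples that held mesonephros, 12 rose and 2 fell. That setting leaves gd11 with 1 array, number 19, which is labelled gonad but had mesonephros markers in the range given above. Its spread is taken from the other stages, so fewer calls follow in part from the smaller group wherever this setting is given. Of the 88 members, 1 was called with a change of 2-fold or more over this span, Ndufaf4, while 22.3% of all genes differed by 2-fold or more between the same stage means, called or not.

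**Figure D2:**
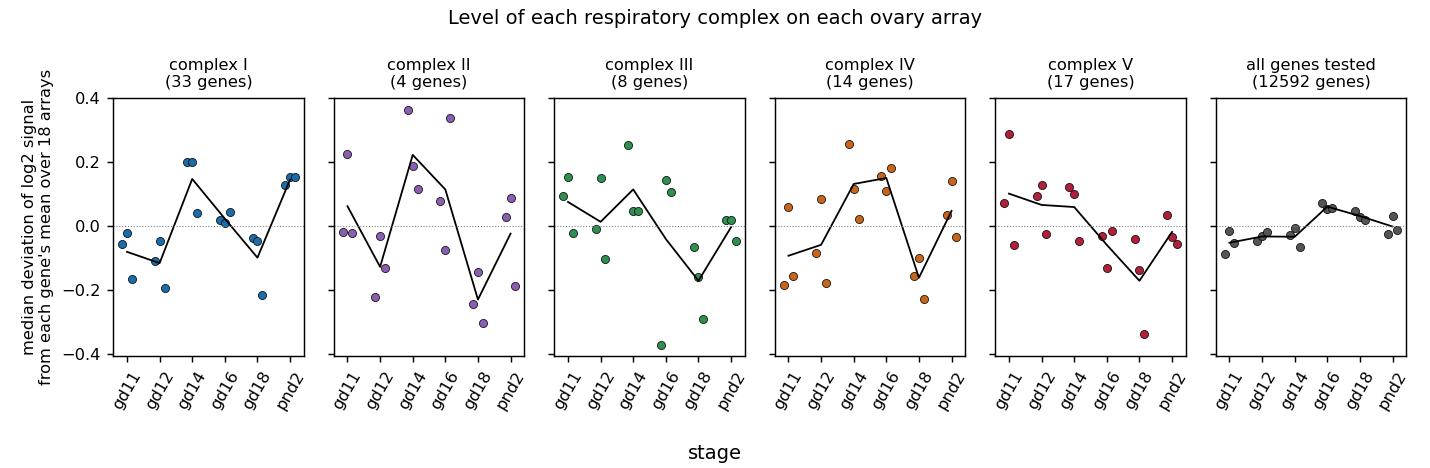
Median deviation of log2 signal of the tested genes of each complex from each gene's own mean over 18 arrays (vertical axis), for each ovary array by stage (points; 3 per stage) with the stage mean (line). In the deposited scaling complex I has its highest stage means at gd14 (0.15) and pnd2 (0.15), and arrays of a stage spread widely in complexes II to V. The highest stage of complex IV is gd16 here and gd14 with median scaling or quantile normalization, and that of complex V is gd11 here and gd14 with quantile normalization.

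The levels of the complexes moved by little, and their order over stages turned in part with the scaling. The level of complex I on an array, given as the median over its 33 tested genes of the deviation from each gene's own mean, was -0.08 ± 0.08 at gd11, -0.12 ± 0.07 at gd12, 0.15 ± 0.09 at gd14, 0.02 ± 0.02 at gd16, -0.10 ± 0.10 at gd18 and 0.15 ± 0.01 at pnd2 on the log2 scale (SD, n = 3 arrays). Complex IV was at 0.13 ± 0.12 at gd14, 0.15 ± 0.04 at gd16 and -0.16 ± 0.06 at gd18, in the deposited scaling. With median scaling its gd16 level was 0.00, and with quantile normalization gd11 (-0.13) was as low as gd18 (-0.13). Complex V had 0.10 ± 0.18 at gd11, 0.07 ± 0.08 at gd12 and its lowest level at gd18 (-0.17 ± 0.15). With quantile normalization its highest stage was gd14 (0.06) and not gd11 (0.05). Gd18 was also the lowest stage of complex II (-0.23 ± 0.08) and complex III (-0.17 ± 0.11). Complex II, with 4 genes, had the widest range of stage means of any complex (0.45). It stood at -0.13 ± 0.10 at gd12, 0.22 ± 0.13 at gd14 and 0.12 ± 0.21 at gd16. These are descriptions: neighbouring stages of complexes III and V differ by about the spread of their arrays or less in most steps. The median over all genes itself ran from -0.05 ± 0.04 at gd11 to 0.06 ± 0.01 at gd16.

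At gd14 over gd12, 9 of 33 complex I genes rose and none fell, with a median log2 change of 0.20. Of all genes 11.6% rose and 8.01% fell. The count of complex I genes that rose was also 9 with median scaling and 12 with quantile normalization. Ndufa1, a small X-linked membrane subunit, had signals of 29325, 23184 and 20513 at gd14, against 13526, 14437 and 12029.6 at gd12. The arrays of the stages did not overlap, and the log2 change was 0.86 ± 0.13 (SE, adjusted p = 1.67e-04). Ndufa1 stayed at this level, with means of 28849 at gd16, 23665 at gd18 and 22386 at pnd2, and its change at pnd2 over gd11 was 0.69 ± 0.13 (SE, adjusted p = 3.37e-04). Ndufs1, the largest iron-sulfur subunit of the matrix arm where NADH electrons enter, had 4934, 5266 and 5151 at gd14, against 3291, 3281 and 2899 at gd12. It rose by 0.69 ± 0.11 (SE, adjusted p = 1.79e-04), and unlike Ndufa1 it had a lower level again at gd16, with 3493, 3457 and 4010.2 (-0.49 ± 0.11 SE, adjusted p = 0.00416), and 2735, 2968 and 2664 at pnd2. The accessory subunit Ndufa6 had 1703, 1706 and 1815 at gd14, against 1013, 1106 and 801 at gd12, a change of 0.83 ± 0.15 (SE, adjusted p = 0.00103).

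Among the other core subunits of the matrix arm, Ndufv2, the iron-sulfur partner of the NADH-binding subunit, rose by 0.55 ± 0.13 (SE, adjusted p = 0.00618) at gd14, and Ndufs7, which lies on the path to ubiquinone, by 0.45 ± 0.13 (SE, adjusted p = 0.0272). Ndufb1, a weakly detected membrane subunit, had 288, 189 and 122 at gd14, against 57.5, 31.8 and 97.6 at gd12. It rose by 1.30 ± 0.38 (SE, adjusted p = 0.0227) at gd14 and by 1.19 ± 0.38 (SE, adjusted p = 0.0341) at gd16, where its arrays read 286, 479 and 754; the call at gd16 was lost with median scaling (log2 change 1.01) and quantile normalization (1.11). Its range over stages, 2.49 on the log2 scale, was the widest of the 88 tested members. Markers of cell types moved at the same step: the summed signal of 8 germ cell markers was 40774 to 47837 at gd14, against 3270 to 11716 at gd12, and muscle markers summed to 1226 to 2053, against 779 to 1074. Their part in the change of complex I was not tested.

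**Figure D3:**
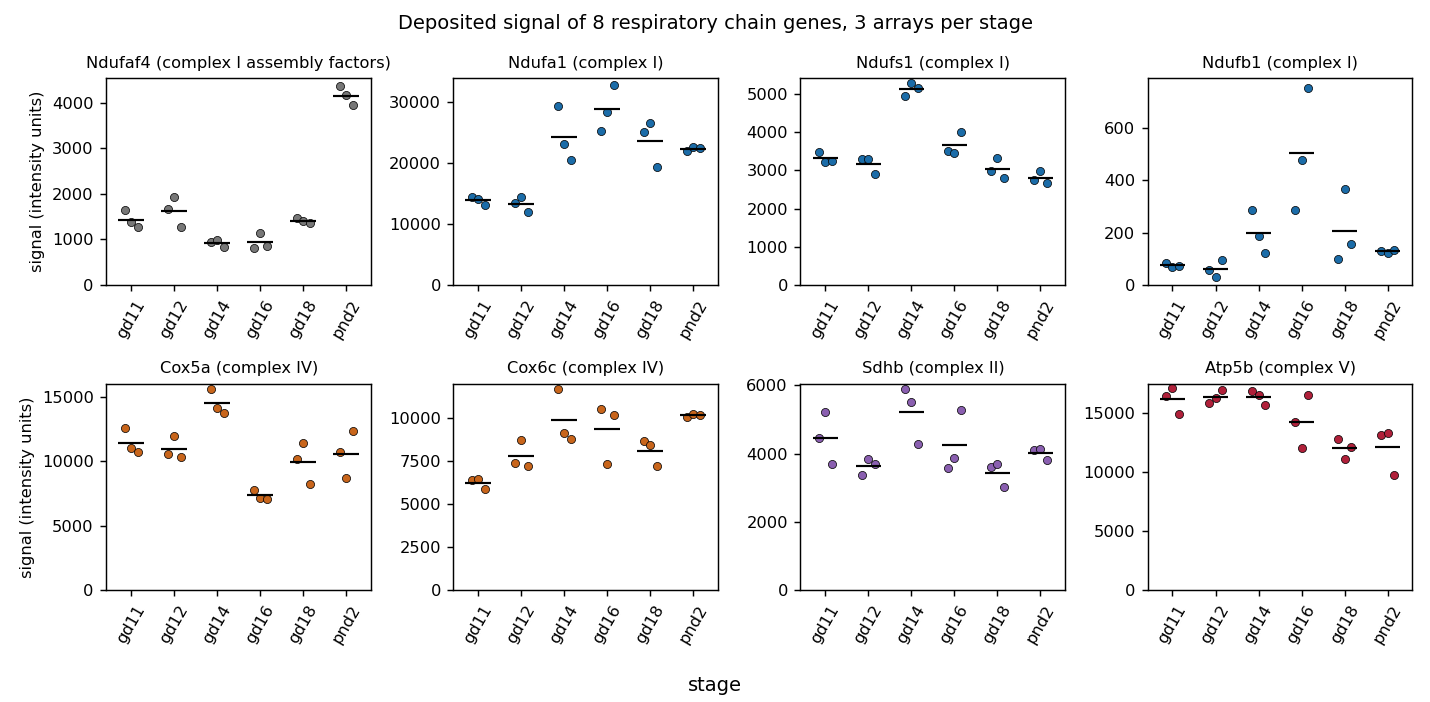
Deposited signal (intensity units, linear axis from 0) of 8 genes on each of the 18 ovary arrays by stage, with the mean of each stage as a bar. Ndufaf4 is near 4153 at pnd2 and at or below 1929 on every earlier array, while Ndufa1 moves up at gd14 and Atp5b is lowest at gd18 and pnd2.

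At pnd2 over gd18, 9 of 33 complex I genes rose and none fell, beside 8.51% and 6.84% of all genes. The median log2 change was 0.22, and the count was also 9 of 33 with median scaling. Of the 9, Ndufb2 had also risen at gd14. Ndufb2 had 2341, 2157 and 2629 at pnd2, against 1610.1, 1571 and 1345 at gd18, a change of 0.64 ± 0.14 (SE, adjusted p = 0.00596). Another probe set of Ndufb2 with a lower signal went the other way, with a log2 change of -1.08, and one further probe set rose by 0.63; with the mean of its probe sets the change was 0.06 and not called. Ndufb7, on the side of the intermembrane space, had 4703, 4045 and 4103 at pnd2, against 3058, 2796 and 2573 at gd18, a change of 0.60 ± 0.12 (SE, adjusted p = 0.00255). Ndufs8, an iron-sulfur subunit next to the site where ubiquinone is reduced, rose by 0.54 ± 0.12 (SE, adjusted p = 0.00752), and Ndufv1, which binds NADH, by 0.48 ± 0.15 (SE, adjusted p = 0.0453); both calls were lost with the mean of all probe sets (0.31 and 0.38). Ndufa5 had 6587, 5805 and 6115 at pnd2, against 5011, 4854 and 4745 at gd18, and rose by 0.34 ± 0.10 (SE, adjusted p = 0.0353). Its call was also lost with the mean of its probe sets (0.50). The count rests on the number of arrays: for all 88 members together, 6 were called at this step without gd18 replicate 6 and 6 without pnd2 replicate 1, against 16 with all arrays. Oocyte markers (6 genes) summed to 12609 to 21388 at pnd2, against 2747 to 5706 at gd18; their part was not tested.

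Over the whole span complex I was the complex with the most higher calls: 12 of 33 rose at pnd2 over gd11 and none fell, with a median log2 change of 0.29, against 0.04 for all genes, of which 26.3% rose and 20.5% fell. With median scaling 6 rose and 1 fell (median 0.13, against -0.10 for all genes), and with 1 gd11 array, without both samples with mesonephros, 7 rose. Ndufv1 had 11219.8, 9485 and 11347 at pnd2, against 7631, 5221 and 4816 at gd11, a change of 0.88 ± 0.15 (SE, adjusted p = 1.48e-04). It was also the member called at gd12 over gd11, with 0.56 ± 0.15 (SE, adjusted p = 0.0447), a call that was lost without either of gd11 replicates 18 and 19 (0.49 and 0.43), among others. Ndufs7 rose by 0.62 ± 0.13 (SE, adjusted p = 0.00105), while Ndufs1 and Ndufv2 did not pass the test over the span (log2 changes of -0.24 and -0.04).

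The complex I assembly factors, which guide modules of the complex together and are not part of the finished enzyme, had a median range over stages of 0.91 on the log2 scale, against 0.56 for the 33 subunit genes. Ndufaf4 had the smallest p of any member in the test over stages (adjusted p = 2.95e-08). It had 4351, 4171 and 3937 at pnd2, against 1462, 1414 and 1365 at gd18, and the change was 1.53 ± 0.16 (SE, adjusted p = 4.27e-06). It had been lower at gd14, with 943, 985 and 836, against 1671, 1929 and 1263 at gd12 (-0.78 ± 0.16 SE, adjusted p = 0.00216), and higher at gd18 than at gd16 (0.59 ± 0.16 SE, adjusted p = 0.0264). The other probe set of Ndufaf4 also fell at gd14 (log2 change -0.81) and rose at gd18 (0.76), but at pnd2 its change was 0.17 and not called, with a mean of 799.5 at pnd2, against 710.2 at gd18. The pnd2 rise thus depends on the probe set. Ndufaf1 went the other way at pnd2, with 998, 806 and 908, against 1598, 1925 and 1326 at gd18, and fell by 0.81 on the log2 scale (SE 0.19, adjusted p = 0.00887). Over the whole span 2 of the 8 rose and 3 fell, beside 26.3% and 20.5% of all genes. Ndufaf1, like Sdhaf1 and Sdhaf4 of complex II assembly, is named after its values were seen.

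In complex II, which also works in the tricarboxylic acid cycle, 2 of 4 genes rose at gd14 over gd12 and 1 fell at gd18 over gd16. Of all genes 11.6% rose at the earlier of these steps and 3.25% fell at the later. At gd14 over gd12 the iron-sulfur subunit Sdhb had 5903, 5501 and 4271 at gd14, against 3358, 3838 and 3697 at gd12, and rose by 0.51 ± 0.16 (SE, adjusted p = 0.0316), a call that was lost with median scaling. The membrane anchor Sdhc had 1929.8, 1746 and 1574 at gd14, against 985, 973 and 1116 at gd12, and rose by 0.75 ± 0.15 (SE, adjusted p = 0.00157). The other membrane anchor, Sdhd, had 1819, 2314 and 2089.9 at gd18, against 3657, 3010.1 and 3482 at gd16, a log2 change of -0.70 ± 0.15 (SE, adjusted p = 0.0068); with the mean of all its probe sets the change was -0.03. Sdha, which holds the site that oxidises succinate, passed no test between stages, with means of 7988 at gd11, 7899.96 at gd12, 9016 at gd14, 9046 at gd16, 7526 at gd18 and 7688 at pnd2. None of the 4 was called over the whole span (limma, unadjusted p under 0.05 for 0). Their assembly factors had 1 higher and 1 lower call, Sdhaf4 (0.94) and Sdhaf1 (-0.49), beside 26.3% and 20.5% of all genes.

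In complex III, 2 of 8 genes fell over the whole span and none rose, beside 20.5% of all genes that fell and 26.3% that rose. Uqcrh, the hinge protein that holds cytochrome c1, had 2606, 2779 and 1643 at pnd2, against 3817, 3983 and 2766 at gd11, and the log2 change was -0.60 ± 0.19 (SE, adjusted p = 0.0156). Its fall came at gd16, where it had 2422, 1829 and 2512, against 4381, 4021 and 3613 at gd14 (-0.83 ± 0.19 SE, adjusted p = 0.00532). The gd16 call was lost with the mean of its probe sets (-0.53). The Rieske iron-sulfur protein Uqcrfs1 had 3300.04, 3408 and 2951 at pnd2, against 4819, 4656 and 3943 at gd11 (-0.47 ± 0.11 SE, adjusted p = 0.00232). Both calls of the span were lost with the 1 gd11 array labelled gonad (log2 changes of -0.27 for Uqcrh and -0.29 for Uqcrfs1). The core proteins Uqcrc1 and Uqcrc2 passed no test between stages, with ranges of 1284 to 2568 for Uqcrc1 and 6516 to 11955 for Uqcrc2 over the 18 ovary arrays. Uqcr11 rose at pnd2 over gd18, with 2081, 1790.4 and 1483 at pnd2, against 1122, 1179 and 916 at gd18 (0.71 ± 0.23 SE, adjusted p = 0.04999). That call held in 11 of 31 alternative settings and was lost with median scaling, among others.

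In complex IV, 4 of 14 tested genes rose over the whole span and none fell, beside 26.3% of all genes that rose and 20.5% that fell. With median scaling 3 rose and 2 fell. With the gd11 array labelled gonad as the only one of its stage, the calls of Cox7a2l (0.35) and Cox4i1 (0.30) were lost. Cox6c, a small subunit at the edge of the complex, had 10074, 10264 and 10200.3 at pnd2, against 6433, 6468 and 5884 at gd11, and rose by 0.70 ± 0.14 (SE, adjusted p = 3.87e-04); the arrays of the stages did not overlap. Cox7a2l, known for joining complexes III and IV into supercomplexes, rose by 0.51 ± 0.12 (SE, adjusted p = 0.00228). That call was lost with the mean of its probe sets (0.40). Cox4i1, the broadly expressed form of subunit 4, rose by 0.32 ± 0.10 (SE, adjusted p = 0.0175), a call that was lost with median scaling. Cox5a had 15589.8, 14153 and 13734 at gd14, against 10599, 11988 and 10340.2 at gd12 (0.40 ± 0.13 SE, adjusted p = 0.0397), and 7805, 7179 and 7072 at gd16 (-0.98 ± 0.13 SE, adjusted p = 7.54e-05). At gd18 over gd16, 3 of 14 fell, beside 3.25% of all genes. They were Cox5b, with -0.60 ± 0.12 (SE, adjusted p = 0.00487), Cox7a2, with -0.47 ± 0.12 (SE, adjusted p = 0.018), and Cox6b1, with -0.46 ± 0.11 (SE, adjusted p = 0.0158). The call of Cox5b was lost with quantile normalization (-0.37), and those of Cox7a2 (-0.38) and Cox6b1 (-0.37) with median scaling. Without gd18 replicate 6 those of Cox7a2 (-0.35) and Cox6b1 (-0.37) were lost too, as was that of Cox7a2 without gd16 replicate 9 (-0.46) and that of Cox6b1 without gd16 replicate 7 (-0.41).

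Complex V had no higher call over the whole span and 3 lower ones among 17 genes, a share of lower calls no larger than that of all genes (20.5%). The catalytic beta subunit Atp5b had 13182, 13326 and 9794 at pnd2, against 16469, 17133 and 14922 at gd11, a log2 change of -0.43 ± 0.12 (SE, adjusted p = 0.00739). The gamma subunit Atp5c1, the rotating shaft, had 9552, 10066 and 11010.4 at pnd2, against 11105, 14260.4 and 13568 at gd11 (-0.34 ± 0.10 SE, adjusted p = 0.0134). Atp5md, a small membrane subunit, fell by 0.87 on the log2 scale (SE 0.19, adjusted p = 0.00137). The call of Atp5b was lost with the 1 gd11 array labelled gonad (-0.32) and without pnd2 replicate 3 (-0.28). That of Atp5c1 was lost with quantile normalization (-0.22) and with the mean of its probe sets (-0.06). With median scaling 6 of 17 fell and none rose. The alpha subunit Atp5a1, which stands with beta in the catalytic head, passed no test, with means of 18399.6 at gd11, 19119.6 at gd12, 16295 at gd14, 18056 at gd16, 17653 at gd18 and 16876 at pnd2. At pnd2 over gd18, Atp5o, which links head and stalk, had 7057, 5506 and 4502 at pnd2, against 4475, 3403 and 2599 at gd18, and rose by 0.71 ± 0.19 (SE, adjusted p = 0.0157). Atp5k rose by 0.43 ± 0.13 (SE, adjusted p = 0.032), a call that was lost with the mean of its probe sets (0.40). Atp5pb, of the outer stalk, rose at gd14 (0.42 ± 0.10 SE, adjusted p = 0.00813), where it had 18955, 15822 and 16958, against 13543, 13269.8 and 11787 at gd12, and was lower again at gd16 (-0.51 ± 0.10 SE, adjusted p = 0.00204). Whether the whole-span change of complex V differs from that of complex I was not tested; the medians were -0.11 for complex V and 0.29 for complex I.

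**Figure D4:**
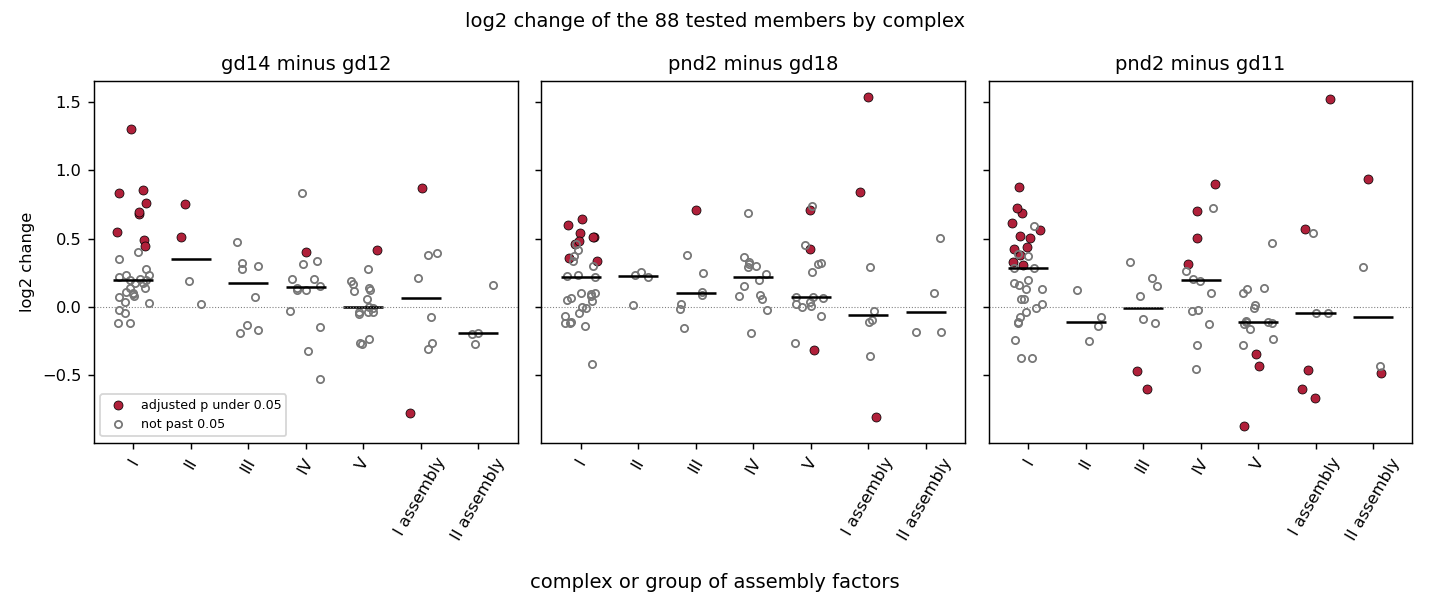
log2 change of each of the 88 tested members (points; filled red where adjusted p is under 0.05) by complex in 3 comparisons, with the median of each group as a bar. In pnd2 minus gd11 the 12 filled points of complex I lie above 0 and the 3 of complex V below it, and Ndufaf4 is the highest point at 1.52.

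At gd16 over gd14, 2 of 33 complex I genes rose and 7 fell (0 and 13 with median scaling), beside 11.4% and 9.75% of all genes, and probe sets of the same gene parted. Germ cell markers summed to 14911 to 19868 at gd16, against 40774 to 47837 at gd14, with 5 of 8 called lower. Erythroid markers summed to 3278 to 7021 at gd16, against 33235 to 35707 at gd14. Their part was not tested. Uqcrb, a complex III subunit, had 43585, 37410.5 and 39109 at gd16, against 35663, 32105 and 29772 at gd14, a rise of 0.30 ± 0.09 (SE, adjusted p = 0.0327) that turned to -0.02 with quantile normalization, while its other probe set fell, with a mean of 1725 at gd16, against 4776 at gd14 (log2 change -1.48). At gd18 over gd16 the same probe sets moved the opposite ways, by -0.63 and 0.70. Atp5j2 fell on its brightest probe set (-0.48 ± 0.12 SE, adjusted p = 0.0112), while a dim one rose by 0.69. Of the 10 members called at gd16 over gd14 that have 2 or more tested probe sets, 4 had another probe set called the same way and 2 had one called the opposite way; for gd14 over gd12 these counts were 7 and 0 of 9. Ndufb5 had 2289, 2824 and 2461 at gd16, against 5026, 4865 and 4441 at gd14 (-0.92 ± 0.14 SE, adjusted p = 2.89e-04), and its other probe set changed by -0.10. Ndufb6 had 4519, 5306 and 6191 at gd16, against 12854, 9425 and 9184 at gd14 (-0.96 ± 0.14 SE, adjusted p = 2.14e-04), and Ndufa13 rose, with 9895, 8606 and 9857 at gd16, against 5374, 7799.7 and 6239.5 at gd14 (0.56 ± 0.17 SE, adjusted p = 0.032). The gd16 arrays also resembled each other least, with a mean correlation of 0.953 to 0.957 with their own stage, against 0.967 to 0.978 for the arrays of the other stages; the part of this in the gd16 changes was not tested. Without gd16 replicate 7, 2 members rose and 11 fell at gd16 over gd14, and the calls of Ndufa13 and Uqcrb were lost.

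Of the variants known from testis, Cox6b2 and Cox8c passed the filter on low signal and Cox7b2 did not. Cox6b2 had 343, 359 and 183 at pnd2, against 133, 177 and 110.2 at gd11, and rose by 0.90 ± 0.27 (SE, adjusted p = 0.0124); it was called in no step between neighbouring stages, and its broadly expressed partner Cox6b1 had means of 16413 at gd11, 14728 at gd12, 13403 at gd14, 15740.4 at gd16, 11479 at gd18 and 13536 at pnd2. Cox8c passed no test and stayed at 272 to 489 on all 18 ovary arrays, with 263 on the newborn pool. Cox7b2, which was too dim to be tested, had stage means of 22.9 at gd11, 33.3 at gd12, 66.8 at gd14, 80.5 at gd16, 72.3 at gd18 and 50.8 at pnd2, and 15.7 on the newborn pool. Cox8a had 292 to 585, Cox6a1 7658 to 12506 and Cox7a2 8629 to 15018 over the ovary arrays.

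Outside the members, 2 mitochondrial genes known from germ cells had larger changes in a single step than any member. Slc25a31, the germ cell form of the ADP/ATP carrier, had 13483, 12206 and 14427 at gd14, against 786, 1902 and 419 at gd12, with 157, 111 and 204 at gd11. It rose by 2.28 ± 0.34 (SE, adjusted p = 8.77e-04) at gd12 and by 3.91 ± 0.34 (SE, adjusted p = 2.09e-07) at gd14, fell to 4254, 3565 and 5341 at gd16 (-1.62 ± 0.34 SE, adjusted p = 0.00287), and was 4.81 higher on the log2 scale at pnd2 than at gd11. Of its broadly expressed partners, Slc25a4 fell at gd14 (-0.48 ± 0.12 SE, adjusted p = 0.0107), and Slc25a5 fell at gd14 (-0.56) and gd18 (-0.73) and rose at pnd2 (0.88). Cyct, the testis form of cytochrome c, had 427, 608 and 276 at gd12, against 150.1, 67.7 and 121 at gd11 (1.68 ± 0.31 SE, adjusted p = 0.00407), and 635, 948 and 806 at gd14. It then fell at gd16, to 231, 118 and 135 (-2.13 ± 0.31 SE, adjusted p = 1.49e-04). Cycs, the somatic cytochrome c, fell at gd16, with 4239.9, 5744 and 4469, against 8237, 8147 and 8477 at gd14 (-0.79 ± 0.13 SE, adjusted p = 3.62e-04), and fell over the whole span (log2 change -0.94). On the newborn pool Slc25a31 read 52.1 and Cyct 6.03.

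**Figure D5:**
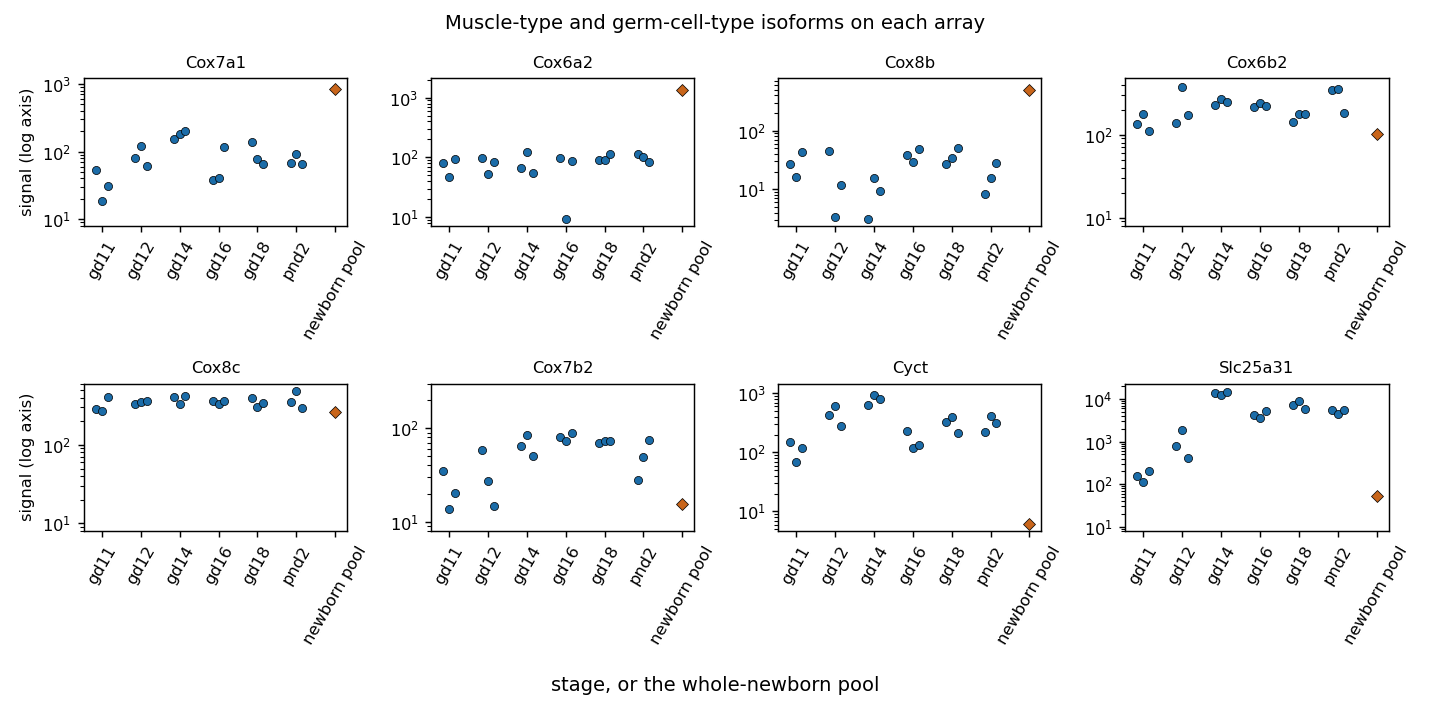
Signal (log axis) of muscle-type (Cox7a1, Cox6a2, Cox8b) and testis-type or germ-cell-type (Cox6b2, Cox8c, Cox7b2, Cyct, Slc25a31) genes on each of the 18 ovary arrays by stage (circles) and on the 1 array of the newborn pool (diamond). The muscle types are far higher on the newborn pool. Slc25a31 is far higher on ovary arrays from gd12 on, and Cyct on those of gd11 too. The gd11 arrays of Slc25a31 also lie above the pool.

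Of the muscle variants, Cox6a2 and Cox8b stayed at 9.15 to 122 and 3.08 to 50.5 on the ovary arrays, with 1367 and 500.4 on the newborn pool. Cox7a1, with 832 on the newborn pool, passed the filter on low signal only through its gd14 arrays, which had 152, 181 and 200.01, against 81.7, 123 and 60.2 at gd12. At gd16 it had 37.9, 40.9 and 118. Since the gene entered the fit through the stage in which it is high, its difference between gd16 and gd14 is given as values only. Muscle markers, summed over 12 genes, were 801 to 962 at gd16, against 1226 to 2053 at gd14, and their part in the level of Cox7a1 was not tested. Cox4i2 and Ndufa4l2, variants known from lung and from low oxygen, had 6.07 to 70.8 and 22.9 to 127 on the ovary arrays.

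The chain can be set beside the pathways that feed it. Glycolysis, which makes pyruvate, had mostly lower calls. At pnd2 over gd18, 8 of 16 tested glycolytic genes fell and 1 rose, with a median log2 change of -0.49, and over the whole span 10 fell and 2 rose, with a median of -0.88. Of all genes 6.84% fell at pnd2 over gd18 and 20.5% over the whole span. With median scaling these counts were 7 lower and 1 higher, and 12 lower and 2 higher. Ldha, which makes lactate from pyruvate, had 3130.1, 3420.4 and 2408 at pnd2, against 6183, 6577 and 10297 at gd18, a log2 change of -1.33 ± 0.19 (SE, adjusted p = 1.31e-04). Ldhb, the form of the enzyme that favours making pyruvate from lactate, had 17968, 18453 and 13621 at pnd2, against 7863, 5480.4 and 8042 at gd18, and rose by 1.23 ± 0.17 (SE, adjusted p = 1.16e-04). Pfkl, of the committing step of glycolysis, fell in the same step (-1.47 ± 0.20 SE, adjusted p = 9.49e-05). Ldhc, known from testis, was 2.30 ± 0.43 (SE, adjusted p = 2.99e-04) higher at pnd2 than at gd11. Respiratory chain members and glycolytic genes were compared with the same arrays, and the difference between the lists was not tested.

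The tricarboxylic acid cycle, which gives the chain its NADH and succinate, had 4 higher and 2 lower calls of 13 over the whole span, shares near those of all genes (26.3% and 20.5%). Citrate synthase (Cs), its entry enzyme, rose at gd14 (0.46 ± 0.10 SE, adjusted p = 0.00521), fell at gd16 (-0.59 ± 0.10 SE, adjusted p = 7.87e-04), and was lower at pnd2 than at gd11 (-0.61 ± 0.10 SE, adjusted p = 1.24e-04), while Idh3a, a subunit of the NAD-linked isocitrate dehydrogenase, was higher (0.65 ± 0.14 SE, adjusted p = 0.00101). The call of Idh3a was lost with the mean of its probe sets (0.28). At pnd2 over gd18 the cycle had 2 higher calls (Suclg2, 0.78, and Sucla2, 0.33) and 1 lower call (Dld, -0.50), beside 8.51% and 6.84% of all genes. The direction of Sucla2 turned with the mean of all its probe sets. Of 8 genes for pyruvate entry, 4 were higher and 1 lower over the whole span, beside 26.3% and 20.5% of all genes. The lower one was Pdha1, the catalytic subunit of pyruvate dehydrogenase (-0.76 ± 0.19 SE, adjusted p = 0.00299), and among the higher ones were the kinases that switch this enzyme off, Pdk1 (1.04 ± 0.36 SE, adjusted p = 0.0278), Pdk3 (0.92) and Pdk4 (1.29). The calls of Pdha1 and Pdk1 were lost with the mean of their probe sets (-0.53 and 0.55), and that of Pdk1 also with median scaling (0.89) and without gd11 replicate 16 (0.69) or pnd2 replicate 3 (0.63). With the 1 gd11 array labelled gonad, fewer of the 8 were called.

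Of 28 tested assembly factors outside the rule, 6 rose and none fell at gd14 over gd12, beside 11.6% of all genes that rose. Ecsit, of complex I assembly, had 762, 721 and 571 at gd14, against 255, 269 and 308 at gd12, and rose by 1.21 ± 0.19 (SE, adjusted p = 1.85e-04), and Foxred1, of the same process, rose by 0.96 ± 0.19 (SE, adjusted p = 0.00177). Cox17, which carries copper to complex IV, had 2895, 2585 and 3896 at gd16, against 8134, 7991 and 9687 at gd14, a log2 change of -1.47 ± 0.16 (SE, adjusted p = 1.43e-05), and was higher again at gd18 (0.74 ± 0.16 SE, adjusted p = 0.009). ND5, the 1 subunit gene of mitochondrial DNA among those listed with a probe set, passed no test between stages, with means of 11368 at gd11, 10897 at gd12, 9374 at gd14, 10776 at gd16, 9371 at gd18 and 9492 at pnd2.

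Beside the newborn pool, most respiratory chain genes had less signal in the pnd2 ovary. The median ratio of the pnd2 mean to the pool was 0.728 for the 88 tested members and 1.18 for all genes tested, and by complex it was 0.781 for complex I, 0.52 for II, 0.535 for III, 0.852 for IV and 0.672 for V. The pool lay above all 3 pnd2 arrays for 60 of 88 members and below all 3 for 19. These counts were not made over all genes, so they have no share to stand beside. A ratio below 0.5 was seen for 11 of 88 members, against 15% of all genes, and a ratio above 2 for 7, against 23.2%; with median scaling 7 members lay below 0.5. Uqcrc1 had 2253, 1716 and 1906 at pnd2, against 6300.2 on the pool, and Sdhb had 4096, 4121 and 3820.5, against 9257. Ndufaf4 lay on the other side, with 4351, 4171 and 3937, against 1417 on the pool. The pool was a whole animal in which 12 muscle markers summed to 156594, against 363 to 926 at pnd2, and without replicates no test was made. RNA quality differed as well, with a 3′ over 5′ ratio of Gapdh of 3.00 on the pool, against 5.07 to 5.41 at pnd2. Its part in the ratios to the pool was not tested.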

How the data were processed

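RNA of 18 ovary samples (6 stages, 3 arrays each) and of 1 pool of whole newborn animals was hybridised to Affymetrix Mouse430_2 arrays, 1 colour, after amplification per the labels' protocols. The authors deposited 1 linear signal intensity per probe set and array, and the submitters' processing notes name GCOS; its version and its handling of background were not given in the sources used here. Arrays hold no counts, so precision rests on how many there are. Genes were named from the platform annotation: 34958 of 45101 probe sets had 1 gene, 932 several and 9211 none; 10 probe sets of several genes with a name of the family were left out.

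Intensities were taken as log2(signal + 31), where 31 is the 25th percentile, so changes of dim genes are understated. Probe sets with a stage mean above 116.05 were fitted with limma 3.58.1 in R 4.3.3 with 1 term per stage, a mean-variance trend and 12 residual degrees of freedom. Tests were two-sided with Benjamini-Hochberg adjustment over all 26431 probe sets, with calls made at adjusted p below 0.05. ± is SE of the fit for changes and SD over arrays for levels. The fit shares 1 spread between pooled and single samples; p values measure the spread between these samples, 2 of which share a dam. The procedure was tested on simulated data.

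Members, gene lists, motifs and tests were chosen with earlier results of these data known. Named are core subunits, the tissue variants with their partners, up to 3 called members in each direction per comparison and complex, up to 2 for each other list, the 5 members with the smallest p over stages and members with probe sets called in opposite directions. Alternatives were pseudocounts of 8 and the median, quantile and median scaling, no filter or one at 507.26, fits of only the arrays compared, no trend, array weights, gd11 samples 18 and 19 averaged, both mesonephros samples left out, the mean over a gene's probe sets, an added 2-fold threshold, and each array left out in turn.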

Additional observations from a re-analysis of the deposited data

How the results depend on the processing

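Of 193 calls of named genes, 69 of them of respiratory chain members, 22 held under every alternative and 2 of those were of members. The added 2-fold threshold, which drops every smaller change whatever its spread, alone removed 154 of the 193. Calls of Ndufa1, Ndufs1 and Sdhc at gd14 over gd12 held in 30 of 31 alternatives, while that of Uqcr11 at pnd2 over gd18 held in 11. Scaling shifts all genes: with arrays scaled to a common median the median change of all genes was -0.11 at gd12 over gd11 (0.00 as deposited), -0.08 at gd16 over gd14 (0.09) and -0.10 at pnd2 over gd11 (0.04). The count of members called at gd12 over gd11 was 1, and 0 with an added 2-fold threshold, gd11 samples 18 and 19 averaged, the mean of all probe sets, median scaling, no filter, no trend, only the arrays compared or both mesonephros samples left out. With the 2-fold threshold 1 member was called at gd14 over gd12, 2 at gd16 over gd14 (Cox7a1 among them), 0 at gd18 over gd16, 1 at pnd2 over gd18 and 1 at pnd2 over gd11. At gd18 over gd16 the count was 7 without the trend and 5 with only the arrays compared, against 11; at pnd2 over gd18 it was 10 with only the arrays compared, against 16; at pnd2 over gd11 it was 14 without the mesonephros samples, which leaves 1 gd11 array, against 28. The range of stage means of complex I was 0.3284 with quantile normalization and 0.3502 with median scaling, against 0.2634, and with median scaling that of complex III was 0.4574, against 0.2857, and of complex V 0.4839, against 0.2725. With median scaling 7 members lay below 0.5 of the newborn pool, against 11.

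Leaving out 1 array at a time, members called ranged from 0 to 1 at gd12 over gd11, 9 to 17 at gd14 over gd12, 10 to 18 at gd16 over gd14, 8 to 13 at gd18 over gd16, 6 to 17 at pnd2 over gd18, 22 to 30 at pnd2 over gd11 and 50 to 57 over the 6 stages. Counts moved by over 1.5 times at gd14 over gd12 without gd12 replicate 15 or gd14 replicate 10 (9 each), at gd16 over gd14 without gd14 replicate 11 or 12 (10 each), at pnd2 over gd18 without gd18 replicate 4 (10), 5 (9) or 6 (6) or pnd2 replicate 1 (6), and at gd12 over gd11 without gd11 replicate 18 or 19, gd12 replicate 13, 14 or 15, gd14 replicate 11, gd16 replicate 7 or 9, gd18 replicate 4 or pnd2 replicate 1 (0 each). A direction turned for 7 calls with the mean over a gene's probe sets: Hadhb at gd18 over gd16 (-0.0148), Sucla2 at gd16 over gd14 (0.181), pnd2 over gd18 (-0.0663) and pnd2 over gd11 (-0.0342), Uqcrb at gd16 over gd14 (-0.5873) and gd18 over gd16 (0.0376), and Vdac1 at gd16 over gd14 (-0.0396). Uqcrb at gd16 over gd14 also turned with quantile normalization (-0.0216). The cause was not tested. No paired analysis was possible because the stages share no replicate numbers.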

Other observations

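Genes of fatty acid oxidation, another source of electrons for the chain, had 5 higher calls and 1 lower call of 14 at pnd2 over gd11, beside 26.3% and 20.5% of all genes. Cpt1a, which admits long-chain fatty acids to the mitochondrion, had 1457, 1549 and 1468 at pnd2, against 409, 511 and 458 at gd11, and rose by 1.64 ± 0.19 (SE, adjusted p = 1.77e-06) by limma. Of 10 genes known to respond to low oxygen, 4 fell and none rose at pnd2 over gd18, beside 6.84% of all genes that fell. Among them were Vegfa, a growth factor of blood vessels (-1.14 ± 0.26 SE, adjusted p = 0.00631), and Ankrd37 (-1.18 ± 0.25 SE, adjusted p = 0.00418). The other 2 were P4ha1 and the glucose transporter Slc2a1, which had 944, 773 and 811 at pnd2, against 1859, 1226 and 2186 at gd18, with no overlap between the stages. At pnd2 over gd11 the same list had 4 higher calls, among them Ndrg1 (1.27), and 3 lower ones, among them Adm (-2.33). Of all genes 26.3% rose and 20.5% fell over this span.

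Of 16 regulators of mitochondrial biogenesis, 2 rose and 2 fell at pnd2 over gd11, beside 26.3% and 20.5% of all genes. Nrf1, whose letters stand in 24.4% of the members' promoter windows, had means of 1357 at gd11, 934 at gd12, 803 at gd14, 986 at gd16, 559 at gd18 and 505 at pnd2, and Gabpb1, the partner of GABPA, had means of 253 at gd11, 414 at gd12, 494 at gd14, 408 at gd16, 553 at gd18 and 618 at pnd2. Nrf1 fell over that span (-1.47 ± 0.37 SE, adjusted p = 0.00334) and Gabpb1 rose (1.18 ± 0.21 SE, adjusted p = 1.52e-04), and neither was called at a step from gd12 on. Both calls rest on the probe set: with the mean of each gene's probe sets the changes were -0.09 for Nrf1 and 0.12 for Gabpb1, and neither was called. The call of Nrf1 was also lost with the 1 gd11 array labelled gonad (-1.08).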
